A study of Mus musculus with 18 samples.

Results

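RNA-seq libraries of mouse embryonic stem cells (ESCs) that lack Zeb2 were compared with those of control ESCs in 2i + LIF, before any differentiation (d0). The comparison holds 6 of the 18 libraries of the series, 3 of Zeb2 KO and 3 of Ctrl cells, and was made across all 10965 genes of the deposited table. Both groups are labelled as ground-state ESCs of CD1 strain. Ctrl cells carry Zeb2 fl/fl, that is Zeb2 alleles flanked by loxP sites and still intact, and KO cells carry Zeb2 -/-, with the alleles deleted by Cre. Cells of both genotypes were grown without feeder cells in N2B27 with 1000 U/ml LIF and 2 inhibitors, PD0325901 (0.4 µM in the labels) and CHIR99021 (1.0 µM in the labels), and the study's methods give higher doses of both. By strain and genotype the labels match the first of the derivations in the study's methods, in which KO lines were made with Cre from Ctrl ESCs. It gave several Ctrl and KO lines, and which of them were sequenced is not given. Each genotype may thus be represented by 1 clone, and p-values measure the spread among these 3 libraries only.

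Zeb2 is a zinc-finger and homeodomain protein that binds E-box sequences of the form CACCTG and mostly represses transcription. It is known for silencing Cdh1 (E-cadherin) in epithelial-to-mesenchymal transition (EMT) and for its role in neural differentiation, and naive ESCs hold very little of it. In 2i, PD0325901 blocks MEK and CHIR99021 blocks GSK3, which keeps ESCs in a state close to the naive epiblast of the blastocyst, with LIF acting through STAT3.

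Zeb2 (ENSMUSG00000026872, chromosome 2, minus strand) was near the detection limit in all 6 libraries. It stood at 0.138, 0.123 and 0.128 TPM in Ctrl (TPM is a share of all transcripts of a library, corrected for transcript length), from 13 to 19 reads per library. In KO it was at 0.0171, 0.0274 and 0.0203 TPM, from 1 to 3 reads. The deposited values include 1 read added to each gene, so levels this low are partly that read. The groups did not overlap and the KO mean was 0.167 of the Ctrl mean, but on the log2(TPM + 1) scale used below the log2 fold change of -0.14 ± 0.12 (SE) had an adjusted p of 0.36. The 6 libraries held 9622622 to 14796961 reads on these genes. Pearson correlations across genes were 0.99 to 0.991 between libraries of a genotype and 0.97 to 0.977 between genotypes.

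The libraries carried the markers of naive ESCs. The 16 naive pluripotency genes of the list, all of which were measured, summed to 5500 to 5730 TPM in Ctrl and 5440 to 5600 TPM in KO. Of 18 fibroblast markers, which feeder cells would bring, 11 were measured. They summed to 150 to 156 TPM in Ctrl and 178 to 199 TPM in KO, and most of this was Timp1, at a mean of 111 and 161 TPM. Col1a1, which encodes the main collagen of fibroblasts, was at 2.07 TPM in Ctrl and 1.17 TPM in KO, and Col1a2 at 0.0843 and 0.0426 TPM.

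In 4 chromosomal regions the libraries also stood apart in a way that the genotype labels do not give across the series. The KO libraries at d0 had regional levels close to those of the Ctrl and the KO libraries of d4, while the Ctrl libraries at d0 were close to the Ctrl and KO libraries of d6 (the values follow below). Copy number of the DNA was not measured, and at d0 genotype and regional state cannot be told apart. Whether other lines were used on other days, or libraries were exchanged between days, cannot be told from the labels, and this limit holds for genes outside the regions and for each comparison of d0 with later days. Zeb2 itself was lower in the KO libraries on each later day too, with means of 1.36 TPM in Ctrl and 0.164 TPM in KO at d4 and of 7.66 and 0.681 TPM at d6. The d0 results on named genes in these regions are therefore given with and without the regional shift.

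At a Benjamini-Hochberg adjusted p below 0.01 in limma, 2960 of 10965 genes (27.0%) were called at d0. Of these, 1157 (10.6%) were higher and 1803 (16.4%) lower in Zeb2 KO. Thus 39.1% of the calls were higher, and this share was 46.8% after median-ratio rescaling, 47.6% after quantile normalization and 47.2% in voom on recovered reads, so the excess of falls was smaller there. Most calls were small, with a median absolute log2 fold change of 0.57. A call with an absolute log2 fold change above 1 is named large here, and there were 479 large calls (4.37%), 176 rises (1.61%) and 303 falls (2.76%). The median log2 fold change over all genes was -0.07, so that a gene at 0 stood slightly above the typical gene. The authors' filter had already removed the least variable genes, so these percentages hold for the genes that were kept.

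Genes of 4 chromosomes moved together. To measure this, the level of each gene was set against its mean over the 6 d0 libraries, and the median of these deviations was taken over the genes of a chromosome. Chromosome 8 (668 genes) had medians of -0.182, -0.218 and -0.190 in the Ctrl libraries, and KO gave 0.212, 0.206 and 0.199. On chromosome 12 (440 genes) the Ctrl libraries had -0.218, -0.202 and -0.200 and the KO libraries 0.221, 0.210 and 0.185. KO thus stood above Ctrl by 0.402 and 0.412 on the log2 scale, and the groups were far apart compared with the spread within them. Chromosome 6 was higher by 0.137 and chromosome 17 lower by 0.118 in KO. On the other 16 chromosomes, X included, the difference lay between -0.070 and 0.012. With 3 libraries a group the smallest exact permutation p is 0.1 (two-sided), which these 4 chromosomes reached together with 11 others.

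**Figure D1:**
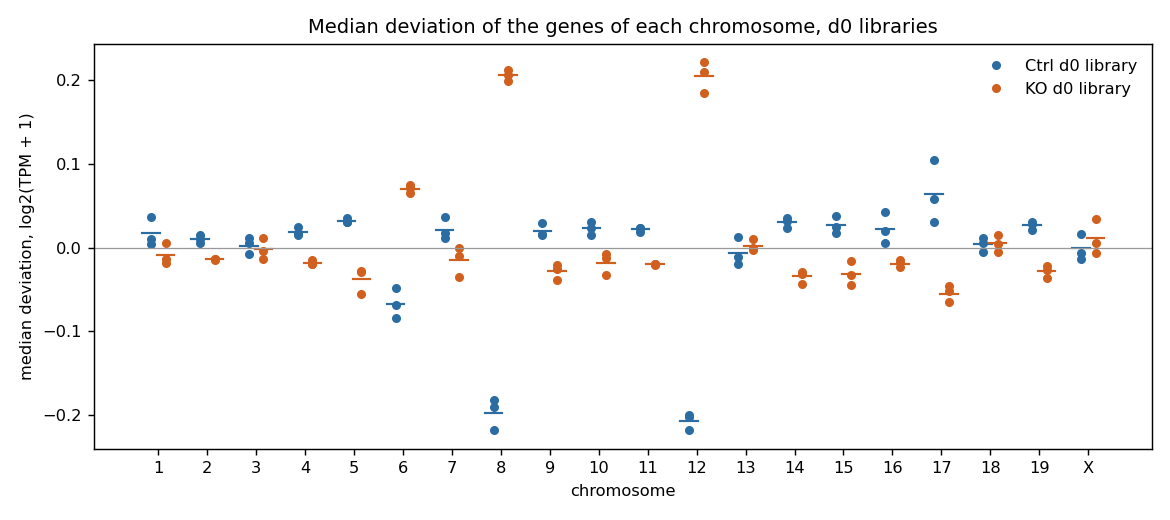
Median deviation of the genes of each chromosome, on the log2(TPM + 1) scale, in each Ctrl (blue) and KO (orange) library at d0, with the group mean as a bar. Chromosomes 8 and 12 stand apart by 0.402 and 0.412, and on the 16 chromosomes other than 6, 8, 12 and 17 the group means differ by at most 0.070.

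The shift covered all of chromosome 8 and the distal parts of the others, as found by placing on each chromosome the border that best divides its genes. On chromosome 12 the higher part began at Bzw2 (position 36091835 of GRCm38) and held 349 genes, and the 91 genes before it had a median of -0.064. On chromosome 6 it began at Polr1a (71909053) with 366 genes, after 194 genes with a median of 0.022. On chromosome 17 the lower part began at Fbxl17 (63057452), with 112 genes up to the end, after 464 genes with a median of -0.028. The 50 most proximal genes of X, with a median of -0.167, did not reach the limit of 0.2 that was set for a region.

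Distal chromosome 17 held the strongest shift. Its median deviation was 0.469, 0.479 and 0.481 in the Ctrl libraries and -0.455, -0.447 and -0.471 in KO, a difference of -0.934. Of its 112 genes, 88 were called lower and 0 higher. Its 81 genes of at least 10 TPM had a median KO to Ctrl ratio of TPM of 0.479 (quartiles 0.421 and 0.524), which is 0.51 of the median ratio of the genes outside the regions.

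Distal chromosome 12 rose most. Its median deviation was -0.261, -0.256 and -0.265 in Ctrl and 0.261, 0.263 and 0.243 in KO, a difference of 0.517, and 209 of 349 genes (59.9%) were called higher and 10 lower. The median ratio was 1.41, or 1.5 relative to the genes outside. On chromosome 8, 323 of 668 genes (48.4%) were called higher and 24 lower, with a median ratio of 1.3, or 1.38 relative to the genes outside. Distal chromosome 6 had the smallest step, from -0.111, -0.098 and -0.099 in Ctrl to 0.111, 0.108 and 0.104 in KO, with 86 genes higher and 31 lower and a relative ratio of 1.19.

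These 4 regions hold 1495 genes, 13.7% of those with a position on the chromosomes tested, but 618 of the 1157 genes called higher (53.4%). They hold 153 of the 1803 genes called lower (8.49%). Outside them 5.69% of genes were called higher and 17.4% lower, with a median log2 fold change of -0.10. Most of the genes called higher thus lay in 4 chromosome parts. Of the large calls, however, 53 of 176 rises and 71 of 303 falls lay in them, so that most large rises lay elsewhere.

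**Figure D2:**
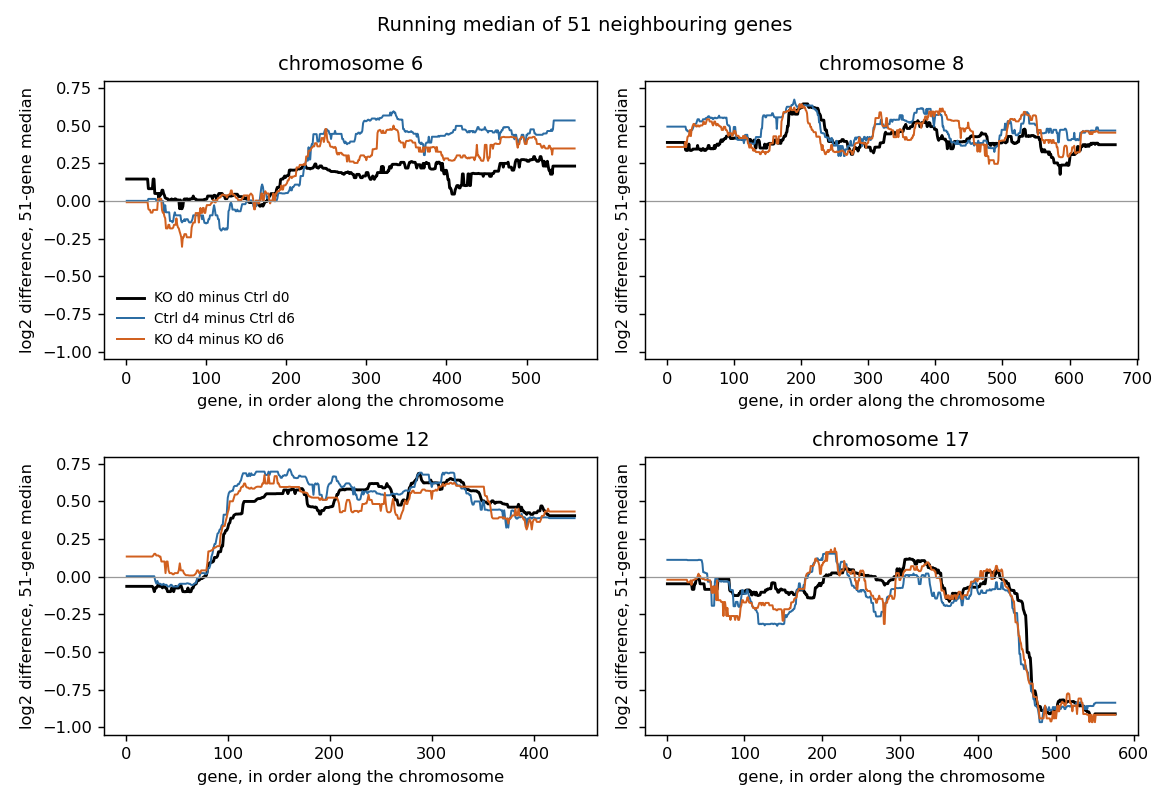
Running median of the log2 difference over 51 neighbouring genes along chromosomes 6, 8, 12 and 17, for KO minus Ctrl at d0 (black), Ctrl d4 minus Ctrl d6 (blue) and KO d4 minus KO d6 (orange). The 3 lines rise or fall at nearly the same genes, to about 0.5 on distal chromosome 12 and about -0.9 on distal chromosome 17.

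Borders at or close to these genes also appeared in comparisons without a difference in genotype. Between Ctrl d4 and Ctrl d6 the step on chromosome 12 lay 2 genes before the d0 border and that on chromosome 17 lay 9 genes before it, at Slc25a23. Between KO d4 and KO d6 the steps lay 1 and 9 genes before the d0 borders. On chromosome 6 both lay 17 genes after the d0 border, at Mrpl19. The distal medians of these 2 comparisons were 0.573 and 0.535 on chromosome 12 and -0.861 and -0.914 on chromosome 17.

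Set against the mean of each gene over all 18 libraries, the groups fell into 2 sets in each region, and no library of a set overlapped with the other set. Distal chromosome 6 had the smallest gap, with a mean deviation of -0.078 in Ctrl d0, -0.190 in Ctrl d6 and -0.213 in KO d6 against 0.158, 0.220 and 0.130 in KO d0, Ctrl d4 and KO d4. On chromosome 8 the mean deviation was -0.174 in Ctrl d0, -0.227 in Ctrl d6 and -0.243 in KO d6. It was 0.216 in KO d0, 0.228 in Ctrl d4 and 0.2 in KO d4. On distal chromosome 17 the order was turned, with 0.466, 0.425 and 0.472 in the first 3 groups and -0.436, -0.423 and -0.425 in the others. On the days d0, d4 and d6, KO minus Ctrl on distal chromosome 17 was therefore -0.934, 0.034 and 0.039, and on distal chromosome 12 it was 0.517, -0.012 and -0.017. The regions were chosen for their d0 difference, so that its change on other days is given without a test.

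**Figure D3:**
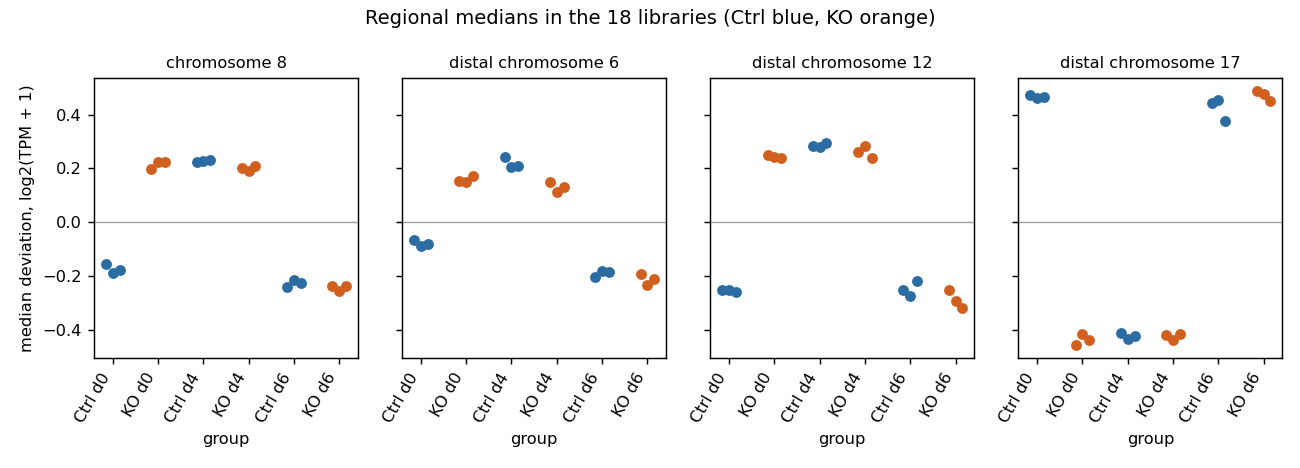
Median deviation of the genes of each shifted region, on the log2(TPM + 1) scale, in the 18 libraries by group (Ctrl blue, KO orange). KO d0, Ctrl d4 and KO d4 lie together and so do Ctrl d0, Ctrl d6 and KO d6, and on distal chromosome 17 the group means lie between -0.436 and -0.423 in the one set and between 0.425 and 0.472 in the other.

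The 5 genes of highest level in each region show how far single genes followed their neighbours. Ckb, which encodes brain creatine kinase (ENSMUSG00000001270, chromosome 12), was at 1390, 1250 and 1280 TPM in Ctrl and 2440, 2290 and 2410 TPM in KO, a log2 fold change of 0.86 ± 0.10 (SE, adjusted p = 7.59e-06). Ahsa1, a co-chaperone of Hsp90, rose by 0.64 and Fkbp3, a prolyl isomerase, by 0.67. After the median deviation of the 51 nearest genes was subtracted in each library, Ckb kept 0.42 (adjusted p = 0.00455), Ahsa1 0.04 (adjusted p = 0.768) and Fkbp3 0.09 (adjusted p = 0.312).

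On distal chromosome 17, Msh6, a DNA mismatch repair protein (ENSMUSG00000005370), was at 887, 863 and 889 TPM in Ctrl and 351, 371 and 361 TPM in KO. Its log2 fold change was -1.28 ± 0.06 (SE, adjusted p = 6.6e-10), and -0.32 (adjusted p = 0.00103) after subtraction. The 3 KO libraries lay close together at 0.411 of the Ctrl mean. Vapa, a membrane protein of the endoplasmic reticulum, fell by 1.15, Wdr43 by 1.07 and Dpy30, a subunit of histone H3K4 methyltransferases, by 0.92, and after subtraction their values were -0.50, -0.15 and -0.04. Srsf7, a splicing factor, was an exception within the region, with a fall of only 0.27 (417 against 504 TPM), and after subtraction it was higher by 0.58 (adjusted p = 9e-06). Rab31, a small GTPase of vesicle transport that was chosen after its values were seen, was below its neighbours, at 15.8, 15.8 and 18.2 TPM in Ctrl and 3.6, 3.42 and 3.95 TPM in KO (log2 fold change -1.92 and -1.21 after subtraction, adjusted p = 2.92e-06).

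The most abundant transcripts of chromosome 8, of the metallothionein genes Mt2 and Mt1, had log2 fold changes of only 0.19 (adjusted p = 0.131) and 0.22 (adjusted p = 0.0423), and were at -0.19 and -0.15 after subtraction. Lamp1, a lysosomal membrane protein, was at 950, 969 and 920 TPM in Ctrl and 1380, 1330 and 1190 TPM in KO, and rose by 0.45 (adjusted p = 9.67e-06). After subtraction it was at 0.15 (adjusted p = 0.0628). Other genes of chromosome 8 stood apart from the region, among them Bst2 and Cpe, which were chosen after their values were seen. Bst2 (tetherin, an antiviral membrane protein) was at 133, 154 and 153 TPM in Ctrl and 65.1, 56.7 and 61.2 TPM in KO, a log2 fold change of -1.25 that became -1.6 (adjusted p = 1.16e-08) after subtraction. Cpe, a carboxypeptidase that processes peptide hormones, rose more than the region, at a mean of 8.49 TPM in Ctrl and 32.5 TPM in KO, with 1.82 and 1.17 after subtraction (adjusted p = 0.000327). On distal chromosome 6, where the step was smallest, 4 of the 5 genes of highest level (Rps4l, Rpl38-ps2, Cct7 and Pcbp1) were not called, with 0.07, 0.08, 0.18 and 0.06 and, after subtraction, -0.16, -0.14, -0.05 and -0.14. The fifth, Ybx3, a Y-box protein that binds RNA, rose by 0.30 and was at 0.04 after subtraction.

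With these neighbour medians subtracted over the whole genome, 647 genes (5.90%) were called higher and 1496 (13.6%) lower. Of them, 552 and 1284 were among the calls without subtraction. Of the 618 genes called higher inside the regions 81 kept their call, and of the 539 called higher outside 471 kept it. For the calls lower these numbers were 89 of 153 inside and 1195 of 1650 outside. Called higher before and lower after were 4 genes, and 1 gene went the other way. Large after subtraction were 136 rises (1.24%) and 247 falls (2.25%), of which 125 and 211 were also large before.

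**Figure D4:**
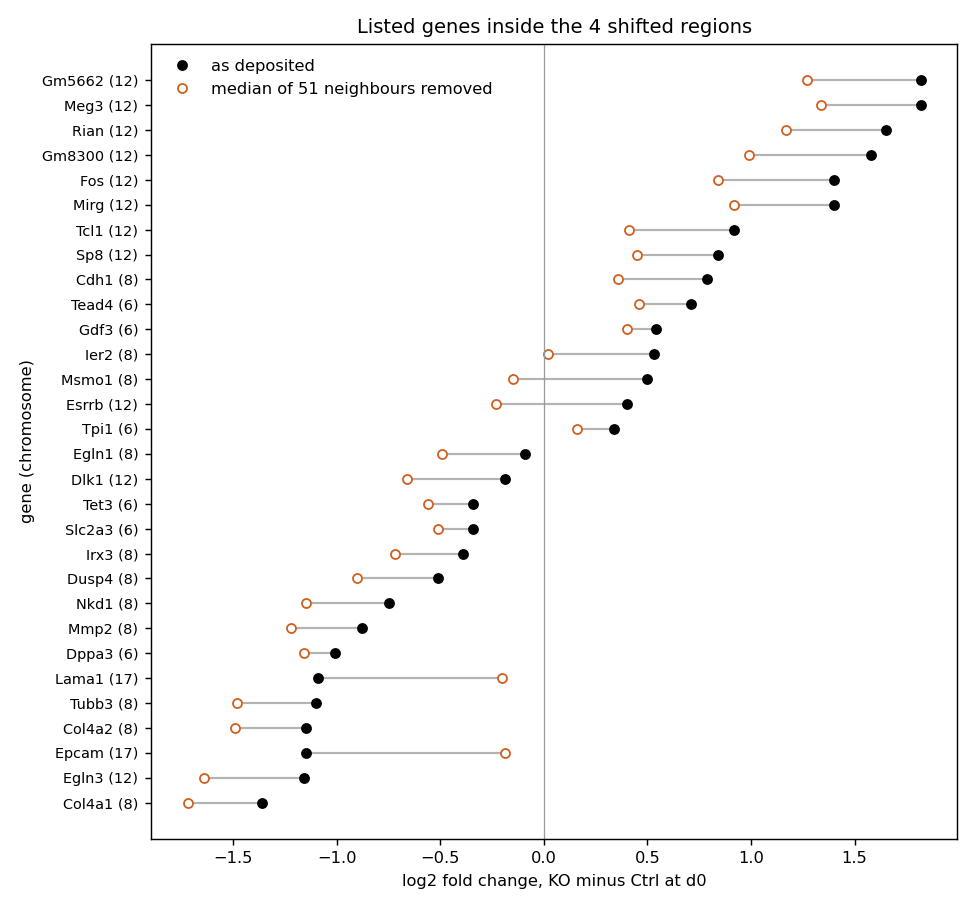
Log2 fold change, KO minus Ctrl at d0, of the 30 genes of the lists that lie in the 4 regions and were called before or after subtraction, from the deposited values (black) and with the median of 51 neighbours subtracted (open orange). Epcam and Lama1 move from below -1 to -0.19 and -0.20, and Esrrb from 0.40 to -0.23.

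Several genes used to read the state of ESCs lie in the regions. Cdh1 (ENSMUSG00000000303, chromosome 8, 106603351 to 106670246) stood at 405, 397 and 393 TPM in Ctrl libraries and at 724, 691 and 654 TPM in KO. The log2 fold change of 0.79 ± 0.08 (SE, adjusted p = 1.18e-06) fell to 0.36 after subtraction and was still called (adjusted p = 0.00204). Esrrb, a nuclear receptor of the naive network (chromosome 12), was at 391, 360 and 384 TPM in Ctrl and 482, 527 and 490 TPM in KO. Its rise of 0.40 (adjusted p = 0.00519) turned to -0.23 (adjusted p = 0.0952) after subtraction, and without any 1 of the 6 libraries it was 0.36 to 0.42 and not called. Dppa3 (Stella, chromosome 6) went against its region, from 293, 288 and 279 TPM in Ctrl to 145, 135 and 146 TPM in KO, with -1.01 (adjusted p = 6.09e-05) and -1.16 after subtraction.

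Nanog, on distal chromosome 6, was at 1250, 1330 and 1260 TPM in Ctrl and 1140, 1140 and 1330 TPM in KO, and its log2 fold change of -0.10 (adjusted p = 0.565) became -0.27 (adjusted p = 0.128). Zfp42 (Rex1) and Klf2, both on chromosome 8, were at 0.18 and 0.03 and, after subtraction, at -0.20 (adjusted p = 0.0507) and -0.29 (adjusted p = 0.146). None of these 3 was called before or after subtraction of 51 neighbours, though Zfp42 was called with a larger number of neighbours (-0.26), and all 3 moved down relative to their neighbours. Tcl1, a co-activator of AKT that lies on chromosome 12, was at a mean of 145 TPM in KO and 76.3 TPM in Ctrl, with 0.92 and 0.41 after subtraction (adjusted p = 0.00816).

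Outside the regional shifts, the largest single-gene rise was that of Nkx1-2, a homeobox gene of the axial progenitors of the tail bud (ENSMUSG00000048528, chromosome 7). It was at 4.76, 3.57 and 3.4 TPM in the Ctrl libraries and 36, 39.4 and 24.3 TPM in KO, a mean 8.51 times as high, with a log2 fold change of 2.78 ± 0.19 (SE, adjusted p = 2.55e-08). Pramel7, a PRAME-like gene of the inner cell mass, was at 1.07, 0.522 and 1.08 TPM in Ctrl and 8.28, 11.9 and 12.9 TPM in KO (log2 fold change 2.66, adjusted p = 9.21e-08). Its neighbour on chromosome 2, Pramel6, rose by 1.83. The 3 genes did not overlap between the genotypes (nor did 51.5% of all genes), which the choice of the largest rises required for Nkx1-2 and Pramel7. The neighbour-subtracted values of the 3 were 2.83, 2.63 and 1.80.

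Pou2f3, a POU-domain transcription factor, had the highest level among the 12 largest rises. It stood at 9.92, 10.1 and 9.58 TPM in Ctrl and 47.2, 45.9 and 36.9 TPM in KO (2.02 ± 0.23 SE, adjusted p = 5.09e-06). Tmem173, which encodes the innate immune adaptor STING, was at 1.97, 2.1 and 1.38 TPM against 12.3, 11.5 and 10.5 TPM (2.15, adjusted p = 8.62e-07). Cyp1a1, a cytochrome P450 that is a classical target of the aryl hydrocarbon receptor, was at 1.73, 1.63 and 0.484 TPM against 12.2, 8.18 and 7.79 TPM (2.21, adjusted p = 3.03e-05). The other rises were BC147527 (2.55), Gm15698 (2.25), Gm2022 (2.16), Gm2016 (1.97), Pdgfrl (1.96), Zdhhc19 (1.93) and Tcstv1 (1.91). Gm2016 and Pdgfrl lie in shifted regions, on chromosomes 12 and 8, and after subtraction had 1.37 (adjusted p = 0.0162) and 1.6 (adjusted p = 1.28e-05). BC147527 rests on 1 to 4 reads per Ctrl library and 22 to 27 per KO library, and several of these gene models belong to families of near-identical copies, between which reads can be split.

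The falls were larger. BC049730 (ENSMUSG00000045587, chromosome 7) was at 24.3, 28.4 and 28.1 TPM in Ctrl and 2.54, 1.42 and 2.1 TPM in KO, with a log2 fold change of -3.22 ± 0.20 (SE, adjusted p = 1.03e-08). Tex101, which encodes a surface protein of germ cells and lies close by on the same chromosome, was at 7.48, 11.6 and 9.92 TPM against 1.41, 1.13 and 1.34 TPM (-2.20). H19, the imprinted long noncoding RNA, was at 7.73, 6.15 and 8.24 TPM in Ctrl and 0.471, 0.418 and 0.371 TPM in KO (-2.55 ± 0.12 SE, adjusted p = 9.98e-10). Ctrl was thus 17.5 times as high as KO for H19, the largest ratio among the 12 falls, and the fold change on the log2(TPM + 1) scale understates it.

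Chst11, a sulfotransferase of chondroitin sulfate, fell from 8.6, 10.3 and 9.63 TPM to 0.808, 0.947 and 0.446 TPM (-2.61, adjusted p = 1.93e-09). Dgat2, an enzyme of triacylglycerol synthesis, fell from 28.2, 26.4 and 32.6 TPM to 4.5, 6.13 and 3.28 TPM (-2.44, adjusted p = 1.33e-07). Wnt7b, a Wnt ligand, was at 9.78, 9.8 and 18.0 TPM in Ctrl and 1.8, 1.13 and 2.12 TPM in KO (-2.30, adjusted p = 2.17e-06). Ak4, a mitochondrial adenylate kinase, had the highest level among the falls, with 94.2, 79.9 and 80.4 TPM in Ctrl and 19.4, 18.3 and 20.8 TPM in KO (-2.06, adjusted p = 8.24e-08). The pseudogene Ak3l2-ps fell by 2.08, and reads of it and of other adenylate kinase copies may have been split. The others were Rhox13 and Foxn4 (both -2.51), Mobp (-2.25) and Ccdc136 (-2.13). The 12 falls lie outside the 4 regions and kept their calls after subtraction, with values from -3.14 to -2.02.

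**Figure D5:**
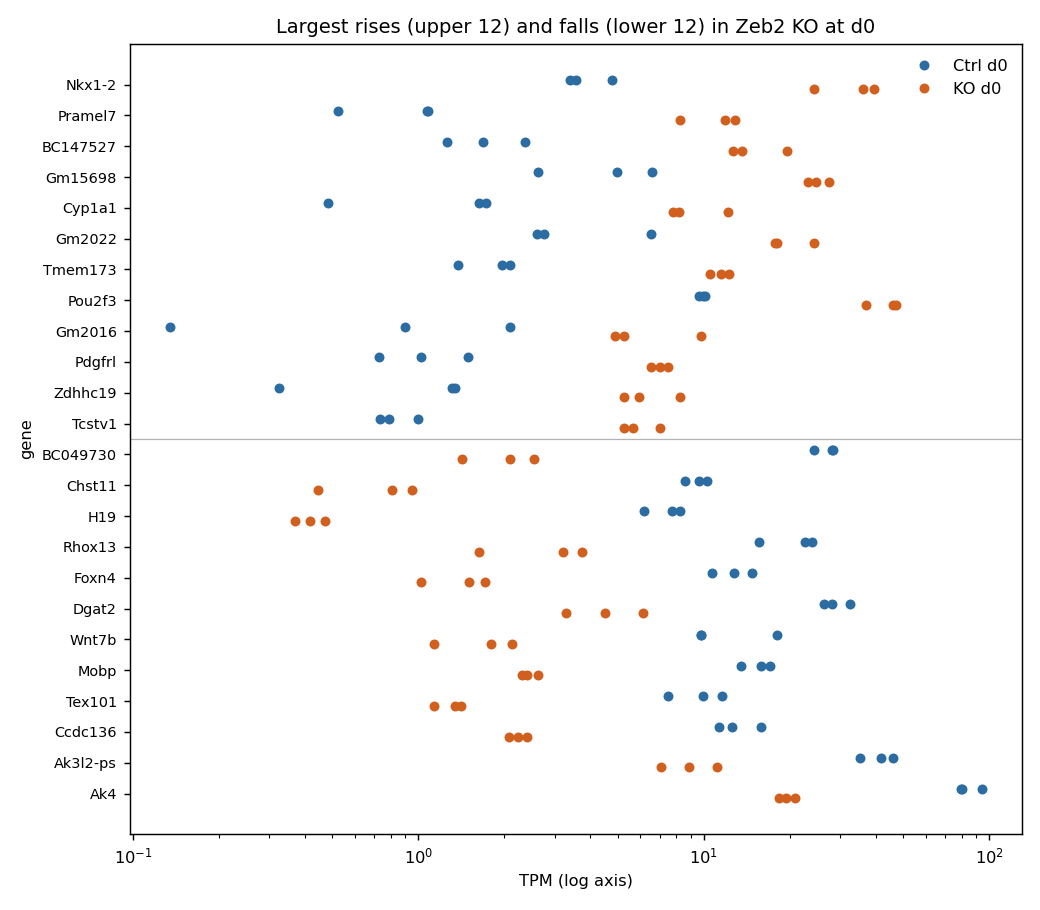
TPM on a log axis of the 12 genes with the largest rise (upper rows) and the 12 with the largest fall (lower rows) in each Ctrl (blue) and KO (orange) library at d0. The groups do not overlap for any of the 24 genes, which the choice of the genes required (over all genes 51.5% did not overlap), and H19 and Chst11 lie below 1 TPM in all KO libraries.

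The counts over gene lists that follow are to be set beside all genes, of which 10.6% were called higher and 16.4% lower. Of 16 genes of the naive pluripotency network 2 were called higher (Esrrb and Tcl1) and 2 lower (Dppa3 among them), with a median log2 fold change of 0.00 against -0.07 over all genes. Tfcp2l1 was at a mean of 708 TPM in Ctrl and 703 TPM in KO, Klf4 at 202 and 192 TPM and Prdm14 at 142 and 145 TPM, none of them called. In shifted regions lie 6 of the 16, and after subtraction 1 was higher and 2 were lower. Of 17 genes of general pluripotency 1 was higher and 6 were lower. Pou5f1 (Oct4) was at 1160, 1130 and 1130 TPM in Ctrl and 1160, 1050 and 1170 TPM in KO (adjusted p = 0.922). Sox2, its partner on DNA, fell from 1150, 1010 and 1090 TPM to 764, 786 and 807 TPM (-0.46, adjusted p = 0.000804). Lin28a, an RNA-binding repressor of let-7, fell by 0.70, and Tcea3, a transcription elongation factor, from a mean of 46.1 to 18.1 TPM (-1.30, adjusted p = 1.16e-08).

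Genes that ESCs raise on leaving the naive state were lower in KO where they differed. Of 16 genes of the postimplantation epiblast 8 were called lower (16.4% of all genes were) and 0 higher, with a median of -0.44. Pou3f1 (Oct6), a POU factor of the early ectoderm, was at 6.45, 4.21 and 6.17 TPM in Ctrl and 1.55, 1.61 and 1.83 TPM in KO (-1.30, adjusted p = 5.2e-06). Lef1, a transcription factor of the Wnt pathway, was at 3.24, 2.63 and 2.84 TPM against 0.236, 0.314 and 0.186 TPM (-1.65, adjusted p = 2.65e-06). The other calls were Sfrp2 (-1.05), Otx2 (-0.82), Cdh2 (-0.63), Zic5 (-0.59), Zic2 (-0.54) and Etv5 (-0.37). Fgf5 (-0.28) was not called. None of the 16 lies in a shifted region, and the 8 calls held after subtraction of 51 neighbours. With 25 neighbours subtracted Zic2 was at 0.06 and Zic5 at 0.00, not called, so that both falls were shared with nearby genes. A region needed at least 50 genes on a side of a border, so a shorter stretch could not be found as one. Otx2 lost its call in a fit to d0 alone and Cdh2 with quantile normalization. Among 9 DNA methylation enzymes only Dnmt3l, the cofactor of the de novo methyltransferases, was called, with -0.83 (adjusted p = 0.000537). Dnmt3a was at -0.46 (adjusted p = 0.0133), and the call of Dnmt3l was lost with a pseudocount of 5 and in voom on recovered reads.

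The signal pathways that the 2i + LIF medium acts on were read from their target genes. Of 15 measured targets and components of LIF-STAT3, 7 were called lower and 0 higher (median -0.22). Socs3, the feedback inhibitor of the pathway, was at 138, 117 and 132 TPM in Ctrl and 70.9, 68.1 and 76.6 TPM in KO (-0.84, adjusted p = 1.97e-05). The receptor subunit Il6st fell from a mean of 31.5 to 23.2 TPM (-0.43) and Stat3 from 45.2 to 33.8 TPM (-0.41). After subtraction 3 of the 7 were called.

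Of 17 feedback genes of MEK-ERK, 4 were called higher and 3 lower, and Spry2, a feedback inhibitor, rose by 0.44 while Dusp4, a phosphatase of ERK on chromosome 8, fell by 0.51 (-0.90 after subtraction). Spry2 was not called in a fit to d0 alone. Immediate early genes varied between libraries. Fos, on distal chromosome 12, was at 8.98, 2.81 and 9.46 TPM in Ctrl and 34.9, 18.5 and 9.41 TPM in KO, so that the groups overlapped. Its call (1.4, adjusted p = 0.00985) was lost after subtraction and without Ctrl replicate 2 (0.92), KO replicate 1 (0.95) or KO replicate 2 (1.4). Egr1 ranged from 3.21 to 33.8 TPM in Ctrl and from 17 to 103 TPM in KO (adjusted p = 0.0271). Of 12 Wnt targets 2 rose and 2 fell, with a median of 0.31 against -0.07 over all genes. Among them 7 were above 0 and 5 below, and Lef1, one of the falls, was at -1.65 as above.

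In the Nodal pathway 4 of 17 genes were called higher and 4 lower. Lefty2, a secreted Nodal inhibitor that is itself a Nodal target, was at 112, 155 and 133 TPM in Ctrl and 254, 255 and 293 TPM in KO (1.01, adjusted p = 1.23e-05). Foxh1, the DNA-binding partner of SMAD2, rose from 153, 139 and 150 TPM to 296, 292 and 259 TPM (0.93, adjusted p = 4.48e-06). The ligand Gdf3, on distal chromosome 6, rose by 0.54 (0.40 after subtraction). The ligand Nodal itself was at a mean of 166 TPM in Ctrl and 195 TPM in KO (0.22, adjusted p = 0.0662). The calls lower were the receptor Acvr2b (-0.66), the signal transducer Smad3 (-0.41), the repressor Skil (-0.61) and Lefty1, a Nodal inhibitor like Lefty2. The call of Acvr2b was lost without Ctrl replicate 3 (-0.53) or KO replicate 3 (-0.48), and that of Smad3 without KO replicate 2 (-0.38). Lefty1 was at -0.59 (adjusted p = 0.00132), and its call was lost in a fit to d0 alone and in voom on recovered reads. After subtraction the 4 rises kept their call.

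Among 13 BMP targets and components, Bmp4 rose by 1.16 (from 3.99, 2.6 and 1.16 TPM to 6.68, 7.07 and 5.96 TPM), though not in a fit to d0 alone. Dusp9, which BMP4 is known to raise in ESCs, was at 113, 125 and 161 TPM in Ctrl and 41.9, 39.2 and 46.4 TPM in KO (-1.61, adjusted p = 3.11e-07), and Id2 (-0.92), Hey1 (-0.91, or -0.73 and not called without KO replicate 2) and Smad6 (-0.85, not called in a fit to d0 alone) were also lower. Of the 13 genes, 1 was thus called higher, 4 were called lower and 8 were not called. Over all genes 10.6% were called higher and 16.4% lower.

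Genes of EMT and cadherins, on which Zeb2 is known to act, were mixed. Of 23 measured genes 4 were called higher (Cdh1, Cldn4, Cldn6 and Vim) and 4 lower (Epcam, Krt18, Mmp2 and Cdh2). Mmp2, a matrix protease on chromosome 8, was at -0.88 and at -1.22 after subtraction. Cldn6 (0.62) and Krt18 (-0.97) were the least stable. The call of Cldn6 held only without Ctrl replicate 2 when 1 library was left out, with 0.54 to 0.66 in the other 5 cases, and that of Krt18 was lost without Ctrl replicate 3 (-0.61) or any 1 KO replicate (-0.99 to -0.92). Cldn4, an epithelial tight junction protein (ENSMUSG00000047501, chromosome 5), was at 233, 240 and 236 TPM in Ctrl and 386, 347 and 354 TPM in KO (0.61 ± 0.09 SE, adjusted p = 8.42e-05). The epithelial adhesion protein Epcam (ENSMUSG00000045394), on distal chromosome 17, was at 62.8, 71.6 and 53.7 TPM against 32.3, 31.5 and 20.3 TPM (-1.15). With its neighbours subtracted it was at -0.19 (adjusted p = 0.354). Vim, a mesenchymal intermediate filament, rose from 73.2, 62.8 and 66.8 TPM to 121, 113 and 100 TPM (0.71, adjusted p = 1.43e-05). After subtraction the 4 rises and the falls of Mmp2 and Cdh2 kept their call, while Epcam and Krt18 (-0.86, adjusted p = 0.019) did not. Ap1m2, the epithelial subunit of the AP-1B clathrin adaptor (ENSMUSG00000003309, chromosome 9), is no member of the list. It was at 6.6, 6.5 and 5.72 TPM in Ctrl, with a mean of 16.1 TPM and no value below 14.3 TPM in KO (1.22 ± 0.16 SE, adjusted p = 1.79e-05).

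The promoters of 3 of these epithelial genes are shown because they carry the E-box CACCTG that Zeb2 binds, and they were chosen after their sequences were seen. Each run is the 250 bases before the annotated start, 5′ to 3′ on the strand of the gene, from RefSeq (GRCm38.p6), with every CACCTG, or CAGGTG where it lies on the other strand, in capitals. Ap1m2 is at chr9:21312334-21312583 (minus strand), Cldn4 at chr5:134946935-134947184 (minus strand) and Epcam at chr17:87635729-87635978 (plus strand).
Ap1m2: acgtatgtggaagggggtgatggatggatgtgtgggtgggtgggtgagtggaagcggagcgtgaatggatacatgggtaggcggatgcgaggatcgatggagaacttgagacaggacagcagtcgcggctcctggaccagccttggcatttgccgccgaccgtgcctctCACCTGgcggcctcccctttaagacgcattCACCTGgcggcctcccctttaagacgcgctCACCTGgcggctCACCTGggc
Cldn4: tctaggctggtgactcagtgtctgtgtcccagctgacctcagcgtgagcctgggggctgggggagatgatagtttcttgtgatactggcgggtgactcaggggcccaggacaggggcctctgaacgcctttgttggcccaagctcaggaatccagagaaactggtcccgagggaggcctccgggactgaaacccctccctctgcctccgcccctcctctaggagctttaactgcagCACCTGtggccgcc
Epcam: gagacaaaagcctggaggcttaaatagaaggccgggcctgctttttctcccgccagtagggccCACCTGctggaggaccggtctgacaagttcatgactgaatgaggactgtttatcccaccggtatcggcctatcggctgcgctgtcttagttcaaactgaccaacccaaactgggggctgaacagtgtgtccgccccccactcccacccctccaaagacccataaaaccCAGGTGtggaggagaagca

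The promoter of Ap1m2 held 4 copies in the same direction, 81, 51, 21 and 9 bases before the start, that of Cldn4 held 1 copy 14 bases before it, and that of Epcam held 2 copies, 187 and 19 bases before it. A promoter entry was matched for 7221 measured genes. CACCTG on either strand was in 16.0% of these promoters and in 17.1% of all 27025 promoters of the table. It was in 17.8% of 803 genes called higher, 15.2% of 1363 called lower and 15.9% of 5055 not called. Outside the shifted regions the shares were 19.6% of 368 called higher and 14.8% of 1248 called lower. A match describes the letters in this window and not binding.

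Imprinted genes, which are expressed from only the maternal or the paternal allele and are prone to drift in cultured ESCs, moved in both directions. Of 34 measured genes 8 were called higher and 7 lower. The maternally expressed RNAs of the Dlk1-Dio3 domain on distal chromosome 12 rose together. Meg3 (chromosome 12, 109541001 to 109571726) stood at 7.38, 6.25 and 6.69 TPM in Ctrl libraries and at 25.4, 28.8 and 25 TPM in KO (1.82 ± 0.20 SE, adjusted p = 4.72e-06). Rian was at 8.32, 8.09 and 6.71 TPM against 26.1, 27.3 and 25.2 TPM (1.65), and Mirg rose by 1.4. These rises were above those of the region, with 1.34, 1.17 and 0.92 after subtraction (adjusted p = 0.000118, 2.75e-06 and 0.00208). Dlk1, the paternally expressed gene of the domain, was below 1 TPM in all 6 libraries.

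On distal chromosome 7, H19, Cdkn1c and Igf2 fell and Phlda2 rose. Cdkn1c, a maternally expressed inhibitor of the cell cycle, went from 6.96, 5.96 and 8.1 TPM to 2.33, 2.28 and 2.62 TPM (-1.22, adjusted p = 9.41e-06). Igf2, which is read from the other allele than H19, was near 1 TPM in Ctrl and lower in KO (-0.79, adjusted p = 0.000553), a call that was lost with a pseudocount of 5. Phlda2, in the same stretch, rose by 0.71 to a mean of 104 TPM, and was at 0.63 and not called without Ctrl replicate 1. Igf2r on chromosome 17, outside the shifted part, fell from 117, 135 and 130 TPM to 63.9, 65.1 and 53.4 TPM (-1.06, adjusted p = 2.9e-07).

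Genes of the 2-cell-like state, which a small share of ESCs enters and which resembles the embryo just after its genome is activated, were higher in KO where they differed. Of 20 measured genes 12 were called higher (10.6% of all genes were) and 0 lower, with a median of 1.39, and 19 of 20 had a positive fold change. Zscan4c, the reporter gene of the state, was at 1.77, 2.35 and 2.62 TPM in Ctrl and 6.48, 7.24 and 11.3 TPM in KO (1.5, adjusted p = 0.00148), and without KO replicate 3 it was at 1.28 (adjusted p = 0.0104). Usp17le rose from 2.35, 4.55 and 2.73 TPM to 10.6, 9.8 and 14.1 TPM (1.59) and Gm5662, on distal chromosome 12, by 1.82 (1.27 after subtraction). Pramel7, Gm2022 and Tcstv1, named above, also belong to this list. After subtraction 8 of the 12 kept their call. Some calls depended on the setting, as Zscan4d was called in 5 of 14 settings and Usp17la in 6 of 14. Reads of these families of near-identical copies can be split among members, and in whole cultures more cells in this state and more RNA per cell cannot be told apart.

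Genes of the germline went the other way. Of 21 measured genes 12 were called lower (16.4% of all genes were) and 1 (Stk31) higher, with a median of -0.78, and all 13 calls held after subtraction. Tex19.1, which protects the germline genome from retrotransposons, was at 285, 248 and 262 TPM in Ctrl and 128, 125 and 123 TPM in KO (-1.08 ± 0.07 SE, adjusted p = 3.88e-08). Piwil2, a protein of the piRNA pathway, fell from 37.0, 33.3 and 38.2 TPM to 15.6, 16.9 and 13 TPM (-1.20), and Mael and Mov10l1 of the same pathway fell by 1.38 and 1.04. Ddx4 (Vasa), a germ cell helicase, was at 25.2, 22.8 and 24.7 TPM against 11.0, 10.9 and 10.9 TPM (-1.08), and Dazl, an RNA-binding protein of germ cells, fell by 0.78. Rhox5, a homeobox gene of X with the highest level in the list, fell from a mean of 1370 to 820 TPM (-0.74, adjusted p = 5.42e-06). For each of these lower genes every KO value was under every Ctrl value, and over all genes 51.5% did not overlap between the genotypes.

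The neural and endoderm lists differed in summed level, much of it through single genes. The neural list summed to 353 to 402 TPM in Ctrl and 237 to 257 TPM in KO, much of it from Tubb3 (below). Its median log2 fold change was -0.15, against -0.07 over all genes. The list of primitive and visceral endoderm summed to 2290 to 2450 TPM in Ctrl and 1710 to 1760 TPM in KO. Much of this sum and of its fall was Rhox5, which was counted among the germline genes too. The median of this list was -0.02, with 12 genes below 0 and 11 above. Of 18 neural genes 4 were called lower (16.4% of all genes were) and 0 higher, with the neurogenic factor Neurog1 at 2.3, 4.11 and 2.67 TPM in Ctrl and 0.359, 0.287 and 0.212 TPM in KO (-1.62, adjusted p = 7.48e-06). In KO this rests on 0 to 1 reads per library, so that its KO level is mostly the added read and its fold change depends on the pseudocount. Tubb3, a tubulin of neurons on chromosome 8, was at 160, 154 and 189 TPM against 87.2, 71.2 and 75.7 TPM (-1.10), and against its rising neighbours it was at -1.48. Of 23 genes of primitive and visceral endoderm 6 were lower, against the same 16.4%, and 0 higher. The calls were the basement membrane genes Col4a1, Col4a2, Lamb1, Lama1 and Lamc1 and the homeobox gene Rhox5. Lamc1 was at -0.27, and its call was lost without any 1 Ctrl replicate (-0.30 to -0.24) and without KO replicate 1 (-0.25) or KO replicate 3 (-0.24). Lamb1 fell from a mean of 16.9 to 6.44 TPM (-1.27) and Col4a1 by 1.36, or 1.72 below its neighbours on chromosome 8. Lama1, on distal chromosome 17, was at -1.09 and, with neighbours subtracted, at -0.20 (adjusted p = 0.389). Gata4 and Gata6, the factors that define primitive endoderm, were at 2.67 and 0.634 TPM in Ctrl and 2.70 and 0.346 TPM in KO, not called. Lists of mesoderm (0 higher and 0 lower of 10) and trophectoderm (2 and 3 of 13) summed to at most 42.5 and 176 TPM per library. Of 11 fibroblast markers 1 was higher and 2 were lower.

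Among lists of growth and stress, 8 of 18 p53 targets and partners were lower and 1 higher (median -0.26). Trp53 itself fell from a mean of 241 to 190 TPM (-0.34, adjusted p = 0.00125), its inhibitor and target Mdm2 from 116 to 82.0 TPM (-0.49) and the target Btg2 from 137 to 87.7 TPM (-0.64). In glycolysis and hypoxia 6 of 27 genes were lower and 1 higher. The glucose transporter Slc2a1 fell from 190, 198 and 210 TPM to 120, 89.8 and 99.5 TPM (-0.95, adjusted p = 4.62e-06), and Egln3, a prolyl hydroxylase that is a target of hypoxia, from a mean of 28.4 to 12.2 TPM although it lies on distal chromosome 12 (-1.16, and -1.64 after subtraction). In cholesterol synthesis 6 of 22 genes were lower and 1 higher, and after subtraction 1 was lower and 0 were higher. In the integrated stress response 1 of 20 was higher and 2 were lower. These counts are to be read against the 16.4% of all genes that were called lower.

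The Y-linked genes Eif2s3y and Uba1y were at the same level in both genotypes, with a mean of 58.8 TPM in both for the first and of 7.68 and 7.77 TPM for the second. Ddx3y was at 40.3, 41.4 and 40.8 TPM in Ctrl and 75.7, 80.4 and 75.3 TPM in KO (0.90 ± 0.09 SE, adjusted p = 2.27e-06), so that 1 of 3 genes of the same chromosome differed. Tsix rose by 1.15 (adjusted p = 0.00132), and as it overlaps its antisense partner and the counting is not stated to use strand, its reads cannot be assigned to it with certainty.

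The libraries of d4 and d6, when the cells form embryoid bodies and turn neural, show which d0 differences had the same direction later. They share no library with d0, and KO minus Ctrl of the 4 regions lay between -0.08 and 0.039 on these days, though without overlap of the genotypes in 3 regions at d4. Of 176 large rises at d0, 15 (8.52%) were called higher at d4, where 12.7% of all genes were, and 23 (13.1%) at d6 (17.9% of all genes). Called lower instead were 55 at d4 and 60 at d6, or 31.2% and 34.1%, where 32.7% and 34.3% of all genes were. Of 303 large falls, 122 (40.3%) and 111 (36.6%) were also called lower at d4 and d6. Called higher instead were 37 (12.2%) and 73 (24.1%), where 12.7% and 17.9% of all genes were. Called in the same direction on both later days were 13 rises (7.39%, where 9.25% of all genes were higher on both) and 84 falls (27.7%, where 24.4% of all genes were lower on both). Most of these shares lay near those over all genes. Farthest from them were falls lower at d4 (40.3% against 32.7%) and falls higher at d6 (24.1% against 17.9%).

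The genes named next were chosen for their course over the 3 days. Ap1m2 was higher in KO on each day, with log2 fold changes of 1.22, 2.07 and 1.80 in order of day, and Lefty2 with 1.01, 1.6 and 2.61. Ubd, a ubiquitin-like modifier, was higher by 1.32, 1.90 and 2.07. Among the genes lower on all 3 days were a gene of retinoid handling and genes of neural tissue. Crabp1, which binds retinoic acid in the cell, was at 77.4, 75.9 and 100 TPM in Ctrl and 31.6, 24.9 and 24.6 TPM in KO at d0, and at means of 3300 against 35.5 TPM at d6. On the 3 days Neurog1 was at -1.62, -3.12 and -4.13 and the neural factor Sox21 at -1.30, -2.0 and -3.48.

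Other genes turned round. Gldc, an enzyme of glycine breakdown, was at 198, 189 and 183 TPM in Ctrl and 51.9, 53.2 and 48.2 TPM in KO at d0 (-1.87, adjusted p = 6.51e-10), and higher in KO by 1.02 at d4 and 1.45 at d6. Pou3f1 was lower at d0 (-1.30) and higher later (1.43 and 3.06). Zscan4c and Gm2022, of the 2-cell-like genes, were higher at d0 and lower at d4 (-2.68 and -2.15) and d6 (-1.80 and -1.58), with d4 means of 39.5 and 72.7 TPM in Ctrl and 5.29 and 16.6 TPM in KO. Zadh2, an oxidoreductase, was at 1.71 at d0 and at -1.42 and -3.78 later.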

How the data were processed

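RNA was measured by RNA-seq in 18 libraries, 3 for each of 6 groups of genotype and day, of which the 6 libraries of d0 are compared here. As the study's methods state, the authors made libraries with the TruSeq RNA kit (whether strand was kept is not given in the sources used here), aligned single reads with TopHat2 2.0.13 to GRCm38/mm10, counted reads per gene with featureCounts 1.4.6 and deposited values in TPM after filters on short noncoding, weakly expressed and little varying genes. The deposited table has 11046 entries, of which 81 repeats of a gene identifier were left out. Its 3 columns of scores computed by the authors over all libraries were not used, and tests that the authors ran with DESeq2 were not used. TPM was put on the log2(TPM + 1) scale from the deposited values. The library depth and the read counts per gene were recovered from the TPM steps, which came out as whole numbers for 100.0% of genes (tolerance 1e-06) after removal of 1 read that had been added to each gene of the deposited table, and such counts served for depth and for 1 alternative only.

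Genes were tested with limma 3.58.1 in R 4.3.3 (1 mean per group, empirical Bayes with trend, Benjamini-Hochberg over all genes, adjusted p below 0.01). Positions of 10922 genes came from GENCODE M21 (GRCm38). For regional values, log2(TPM + 1) was centred per library on the median of all genes and per gene within a day, or over all 18 libraries for the levels set side by side across days. A region was kept as shifted above 0.2 on the log2 scale, with at least 50 genes on a side of a border, and neighbour subtraction removed the median of the 51 nearest genes in each library before the same fit. Named were Zeb2, the 12 largest rises and falls, the 5 genes of highest TPM per region and members of 24 lists, and genes outside this rule are marked as chosen after their values were seen. A few genes are not reported here. Members and lists were chosen with earlier results of these data known. The tests were checked on simulated data. Alternatives were other pseudocounts, filters, scalings, fits and window sizes, a replicate block and leaving out each library. Counts of reads limit precision for weak genes, and no interval covers more than the spread between the 3 libraries of a group.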

Additional observations from a re-analysis of the deposited data

Results flagged for a closer look

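The difference between KO and Ctrl changed from d0 to the later days for the shifted regions and for single genes, which were chosen for their d0 difference. As the change subtracts that same d0 value, its sign is largely fixed by the choice, and the values are a description. On the log2 scale, the difference at d4 minus that at d0 was -0.42 on chromosome 8, -0.29 on distal chromosome 6, -0.528 on distal chromosome 12 and 0.968 on distal chromosome 17. At d6 this change was -0.399 on chromosome 8 and -0.228, -0.533 and 0.973 on the distal parts of chromosomes 6, 12 and 17.

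Among the 12 largest rises at d0, 7 were called lower in KO on a later day, at an adjusted p below 0.01 in limma. Over all genes, 32.7% were called lower at d4, 34.3% at d6 and 24.4% on both days. The 7 were counted on either day, and the share of all genes lower on either day is larger than each of these. For Nkx1-2 the change since d0 was -3.67 at d4 and -5.68 at d6. For Gm2022 it was -4.31 and -3.73, for Tmem173 -3.4 and -3.0, for Pdgfrl -3.64 and -2.97 and for Tcstv1 -3.53 and -2.94. For BC147527 and Gm2016 it was -4.4 and -3.48 at d4. The values of Pdgfrl, on chromosome 8, and of Gm2016, on distal chromosome 12, include the changes of these regions. Groups of 3 libraries are too small for a test of single outlying libraries, and none was made.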

How the results depend on the processing

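In all 52 alternative values the regional differences kept their sign and a size above 0.1, without overlap of the genotypes. Without 1 library each they were 0.392 to 0.409 on chromosome 8, 0.208 to 0.219 on distal 6, 0.51 to 0.527 on distal 12 and -0.942 to -0.924 on distal 17. With a pseudocount of 5 they were smaller, at 0.33, 0.166, 0.436 and -0.765 in the same order. Leaving out 1 library each gave 2229 to 2465 calls against 2960, 426 to 497 large calls against 479, 86 to 114 large calls that held on both later days against 97, 107 to 122 called list members and 3260 to 3944 shifted windows. Large calls numbered 215 among genes of at least 10 TPM, 732 with a pseudocount of 0.1, 160 with one of 5 and 310 (48.4% higher, against 36.7%) after quantile normalization, and those that held on both later days numbered 41, 153, 28 and 48, or 149 in voom on recovered reads. Subtraction with 25 neighbours left 1949 calls, and genes of at least 10 TPM gave 2151 shifted windows against 3458. Without the 4 regions 24.6% of calls were higher and with region medians removed 25.2%, against 39.1%. Removal of shared shifts turned Esrrb (chromosome -0.01, region -0.12, and -0.19, -0.23 and -0.15 with 25, 51 and more neighbours), Srsf7 (region 0.66, and 0.55, 0.58 and 0.65), Dpy30 (region 0.02), Zfp42 (-0.26 with more than 51), and, with 25 neighbours, Zic2 (0.06), Zic5 (0.00) and Ybx3 (-0.04). Of 117 named genes called, 96 were called in each of the 15 settings without such removal. Replicate numbers are not shown to pair the libraries (correlations of same-numbered deviations 0.152, 0.148 and -0.077), and a replicate block gave 2780 calls, 478 of them large. The median of all genes moved from -0.07 to -0.02 with quantile normalization. Zeb2, from at most 19 reads a library, was called in 2 of 14 settings, and depth limits such genes.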

Other observations

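Neighbouring genes outside the 4 regions also differed together in places, a description made after the values were seen. BC049730 (chromosome 7, 24709242 to 24714535 of GRCm38) and Tex101 (24668007 to 24676675) were lower in KO by 3.22 and 2.20 on the log2 scale at d0. At d4 and d6 BC049730 was at -1.27 and -1.26 and Tex101 at 0.38 and 0.50, so that the pair differed in sign on those days. Pramel7 and Pramel6, adjacent on chromosome 2, were higher in KO at d0 by 2.66 and 1.83 and stood at 0.25 and 0.01 at d4.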
